A study of Homo sapiens with 3 samples.

Results

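The genes described here are the chaperones, stress sensors and degradation factors of the endoplasmic reticulum (ER), in SW480 cells in which the RNA-binding protein RBMS1 was knocked down. They were taken by name: 33 listed genes of ER folding, the unfolded protein response and ER-associated degradation, all 33 of which were among the 12582 genes measured. They are covered by 43 of the 19818 RefSeq transcripts that could be matched to a gene. SW480 is an established human colon adenocarcinoma line. The knockdown library came from cells transduced with a short hairpin RNA against RBMS1 (shRBMS1, 1 library). It is set against cells given control hairpins (shControl, 2 libraries), and RNA was taken 48 hours later in all of them. The knockdown rests on 1 hairpin sequence and 1 library, and no value per library was analysed here. Each value is therefore a single number per transcript without an error, and no test of any difference was possible.

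Proteins that enter the secretory pathway fold in the ER lumen, helped by chaperones, by lectins that bind sugar chains and by enzymes that make disulphide bonds. When folding lags, the sensors IRE1 (encoded by ERN1), ATF6 and PERK start the unfolded protein response, which raises chaperone and degradation genes through the transcription factors XBP1, cleaved ATF6 and ATF4. Proteins that do not fold are drawn back through the membrane and degraded, a route called ER-associated degradation (ERAD). In secretory and epithelial cells of the gut this response is known for its role in handling the load of secreted and membrane proteins.

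The median of the members lay next to that of all genes, and a few single genes stood far from 0. The sensor gene ERN1, the chaperone gene HSPA5, the transcription factor gene CREB3L2 and the mannosidase-like gene EDEM1 lay lower in shRBMS1, between 47.2% and 69.8% of control, while the ubiquitin ligase gene SYVN1 lay higher, at 835% of control. Of the 33 members, 22 lay within 0.25 of 0. All values below are log2 fold changes, shRBMS1 over shControl. Where a gene has several transcripts its value is their median, computed here.

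Before the values, the sequences that tie many of these genes together are shown, because they let each member's value be read against a regulatory element it carries. The ER stress response element (ERSE) is the promoter sequence through which ATF6 and the factor NF-Y act on chaperone genes, and ERSE-II is a shorter relative. Windows from 250 bases before to 50 after the gene start were taken from RefSeq (GRCh38.p14) for 31 of the 33 members, and PDIA3 and DERL1 had none. Both strands were searched for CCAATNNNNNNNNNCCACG (ERSE), ATTGGNCCACG (ERSE-II), TGACGTGG (UPRE, the element of XBP1) and TGACGTCA (CRE). ERSE was found in 8 of the 31 members (25.8%), against 15 of 10012 measured genes with a window (0.150%) and 27 of all 35116 windows (0.0769%). ERSE-II was found in 3 other members (9.68%), against 16 of the 10012 measured genes (0.160%) and 19 of all windows (0.0541%). UPRE was found in HYOU1 and VCP (6.45% of the members, 1.24% of measured genes), and in HYOU1 it shares bases with an ERSE-II match. CRE was found in CREB3L2 alone (3.23% of the members, 3.99% of measured genes). A match is a string of letters and not a measured binding site. Only exact matches within the window were counted, so a gene without one may still hold an altered or more distant element.

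Of the members' ERSE matches, 4 are shown, since these genes span the range of values from the lowest to the highest among carriers. They are written in the motif's own direction with the match in capitals and 5 bases on each side. The HSPA5 match lies at chr9:125241391-125241409, that of PDIA6 at chr2:10812853-10812871, that of XBP1 at chr22:28800603-28800621 and that of CRELD2 at chr22:49918554-49918572 (GRCh38.p14).
HSPA5: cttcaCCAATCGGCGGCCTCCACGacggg
PDIA6: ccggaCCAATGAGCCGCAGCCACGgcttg
XBP1: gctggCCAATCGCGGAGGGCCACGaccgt
CRELD2: atggcCCAATCCGAGTTCGCCACGagagg

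HSP90B1 carries a pair of ERSE matches in its window, at chr12:103930216-103930234 and chr12:103930321-103930339, and is shown because its value lay next to 0 with the same element that HSPA5 has.
HSP90B1, upstream match: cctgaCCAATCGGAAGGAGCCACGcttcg
HSP90B1, downstream match: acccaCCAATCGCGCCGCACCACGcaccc

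The ERSE-II matches of the degradation gene HERPUD1 (chr16:56932025-56932035) and the chaperone partner SDF2L1 (chr22:21642114-21642124) show the shorter form.
HERPUD1: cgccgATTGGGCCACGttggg
SDF2L1: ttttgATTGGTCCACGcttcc

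The whole HSPA5 window, chr9:125241294-125241593 on the minus strand (GRCh38.p14), is given because HSPA5 had the lowest value among the carriers. It is written 5′ to 3′ along the gene, with the ERSE match in capitals.
HSPA5 promoter window: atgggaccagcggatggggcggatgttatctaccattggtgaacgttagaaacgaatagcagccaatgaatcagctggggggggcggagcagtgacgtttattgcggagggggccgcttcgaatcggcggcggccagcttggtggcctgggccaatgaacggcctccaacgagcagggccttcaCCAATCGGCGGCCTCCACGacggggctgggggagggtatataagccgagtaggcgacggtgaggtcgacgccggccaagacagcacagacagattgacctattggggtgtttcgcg

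The 11 members with an ERSE or ERSE-II match did not share a direction. Their values ran from −0.73 for HSPA5 to 0.55 for CRELD2 with a median of 0.02. Below 0 were 5 of the 11, beside 48.5% of all genes. The 20 members with a window and neither match had a median of 0.02 and ran from −1.08 to 3.06, with 9 below 0. At or below −0.5 were 2 of the 11 carriers and 3 of the 20 others, beside 12.9% of all genes. Of those 2 carriers, PDIA6 was at −0.64 as the median of transcripts at −1.38 and 0.11. Its match lies inside the gene's span, and which transcript starts beside it was not looked at. The same holds for the match of CANX, whose transcripts were at −0.19 and 0.22. Outside the members, 7 measured genes carried an ERSE, with a median of −0.09 and a range from −0.51 to 0.37. The lowest of them was FICD at −0.51, which encodes the enzyme that adds and removes AMP on the HSPA5 protein, and SERP1, a small ER membrane protein induced by stress, was at 0.20. ALG12, a mannosyltransferase gene with an ERSE in its window, was at −0.20, where its neighbour CRELD2 was at 0.55. Windows of neighbouring genes can overlap. Carriers were counted by gene, and whether neighbours carry the same site was not looked at. A further 13 measured genes outside the members carried an ERSE-II, with a median of 0.21, a range from −0.83 to 0.83 and 6 below 0.

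**Figure D1:**
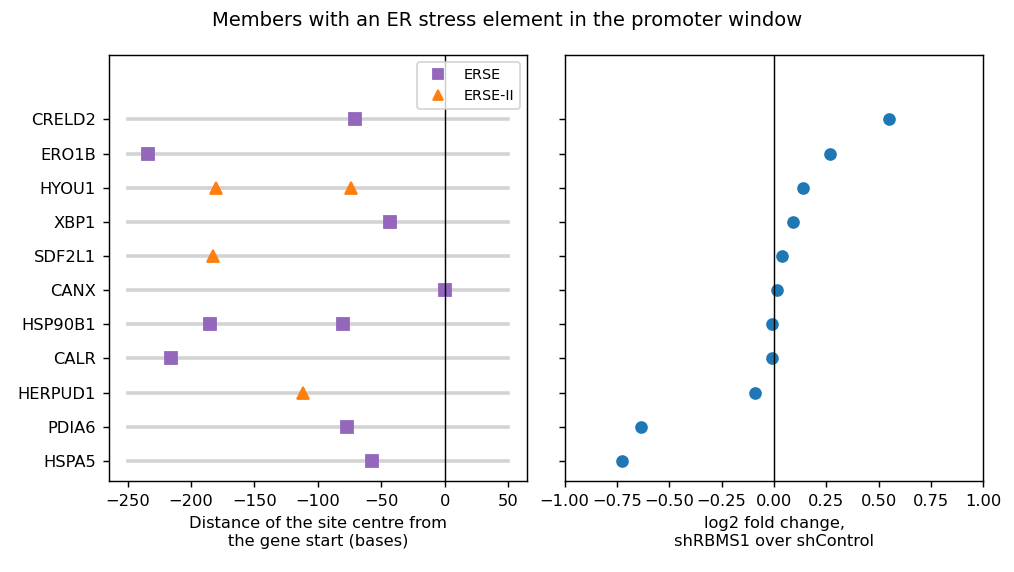
Left, distance in bases of each ERSE (square) or ERSE-II (triangle) match from the gene start for the 11 members that carry one, with grey bars for the window searched. Right, the log2 fold change of the same genes, shRBMS1 over shControl, 1 point per gene. HSPA5 and PDIA6 lie at −0.73 and −0.64 and the other 9 between −0.09 and 0.55. For CANX, which has several listed starts, the most upstream start whose window holds the match is drawn. The PDIA6 and CANX matches lie inside the spans listed for those genes, and which of their transcripts start beside them was not looked at. The PDIA6 value is the median of transcripts at −1.38 and 0.11.

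RBMS1 itself, the targeted gene on chromosome 2 at 160272151 to 160493807 (hg38), had a median of −1.49, which is 35.6% of control. The authors' deposited table does not state the direction of its ratio, and RBMS1 below 0 was used to set it, so this sign is no check of the labels. SW480 markers were looked at as fold changes alone, since levels were not analysed here. Of 14 colon epithelial marker genes 10 were measured, with a median of −0.40. Below 0 were 9 of these 10, beside 48.5% of all genes. The list held VIL1 at −2.33 and KRT18 at −1.09, with KRT8 highest at 0.05. KRT18 had transcripts at −2.17 and −0.02 by the authors' deposited table, and those of KRT8 ran between −0.07 and 1.82 there. The part of these markers in the members' values was not tested. Leukocyte, fibroblast and endothelial markers had 0 of 5, 0 of 5 and 0 of 4 genes among those measured.

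Across the 33 members the median was 0.02 with quartiles of −0.13 and 0.17, against 0.01 with quartiles of −0.25 and 0.23 over all 12582 genes. Below 0 were 15 of the 33, where 48.5% of all genes lay. Within 0.25 of 0 were 22 of the 33, where 51.5% of all genes lay. At or above 1 was 1 member, SYVN1, beside 3.95% of all genes, and at or below −1 was 1 member, CREB3L2, beside 3.96%. With a lower threshold of 0.5, 3 members were higher beside 10.2% of all genes, and 5 were lower beside 12.9%. In both directions together that made 8 of 33 members, beside 23.1% of all genes, so the count of displaced members was close to that of genes in general.

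**Figure D2:**
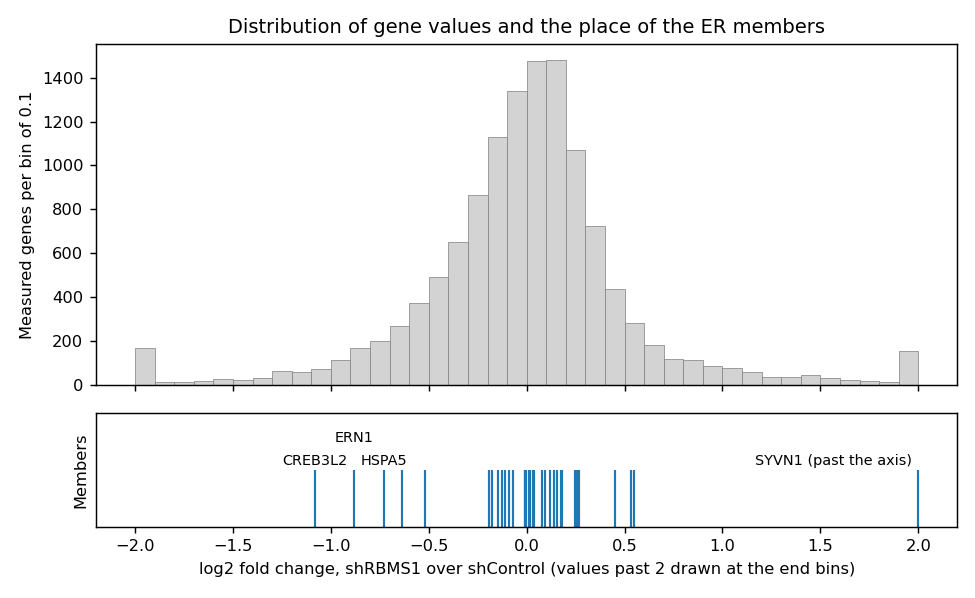
Top, number of measured genes per bin of 0.1 on the log2 fold change axis, shRBMS1 over shControl, for 12582 genes. Bottom, 1 line per member. Most lines sit under the peak, while CREB3L2, ERN1 and HSPA5 lie to the left at −1.08, −0.88 and −0.73 and SYVN1, at 3.06, is drawn at the right end.

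Of the lumenal chaperones, HSPA5 (chromosome 9, 125234853 to 125241343), known as BiP, is the main ER member of the heat shock protein 70 family and holds the stress sensors inactive. In the authors' deposited table its only transcript, NM_005347, stood at −0.73, or 60.4% of control, at percentile 7.32 of all genes. HSP90B1, the ER member of the heat shock protein 90 family, was at −0.01 in the authors' deposited table, or 99.3% of control. So the main chaperones of these families lay apart, with HSPA5 lower and HSP90B1 at the control level. HYOU1, a nucleotide exchange factor for HSPA5, had transcripts at −0.09 and 0.37 by the authors' deposited table and a median of 0.14. SDF2L1, which works with the J-domain protein DNAJB11, was at 0.04 by the authors' deposited table, and MANF, a stress-induced factor that binds HSPA5, at 0.12. Those partners of HSPA5 stayed within 0.14 of 0 as genes and did not share its value. CRELD2, a stress-induced protein with disulphide isomerase-like motifs, had coding transcripts at 0.17 and 0.55 and a non-coding one, NR_104295, at 1.49 by the authors' deposited table. All 3 lay above 0, and the largest of them is the one that RefSeq lists as non-coding. Its linked reference form nevertheless has a coding part of 1062 bases, as long as that linked to the coding transcript NM_024324.

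The lectin chaperones calreticulin and calnexin, which hold glycoproteins until their sugar chains are trimmed, lay at the control level. CALR, the soluble one, lay at −0.01 by the authors' deposited table, or 99.3% of control. CANX, the membrane-bound one, had transcripts at −0.19 and 0.22 there, with a median of 0.02.

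Disulphide isomerases form and reshuffle bonds between cysteines. P4HB, the founding member and a subunit of collagen prolyl hydroxylase, was at −0.19 in the authors' deposited table, or 87.7% of control. PDIA3, which works with the lectin chaperones, was at −0.11 there and PDIA4 at 0.03. A processed copy of PDIA3, PDIA3P1, was also measured, at 0.05, and no source used here says how reads were divided between them. These 3 isomerases thus lay between −0.19 and 0.03. PDIA6 (chromosome 2, 10783391 to 10837712) had the gene value −0.64, but its transcripts went both ways. NM_001282707 was at −1.38 in the authors' deposited table, or 38.4% of control, and NM_005742 at 0.11, or 108% of control. The linked reference transcripts have 14 and 13 exons, and coding parts of 1314 and 1323 bases. The low gene value of PDIA6 therefore comes from 1 of its 2 measured transcripts. The neighbouring gene ATP6V1C2, which overlaps PDIA6 over 1720 bases, was at −0.99, and no source used here says whether counting used strand.

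The ER oxidases ERO1A and ERO1B, which pass electrons from the isomerases to oxygen, lay at −0.18 and 0.27 by the authors' deposited table, or 88.6% and 120% of control. The J-domain proteins, which bring clients to HSPA5 and start its ATP cycle, were also close to 0. DNAJB9, known as ERdj4 and a classical XBP1 target, was at −0.13, DNAJC3, known as p58IPK, at 0.17 and DNAJB11, known as ERdj3, at 0.25 in the authors' deposited table. These 5 genes thus lay between −0.18 and 0.27.

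Among sensors and transcription factors, ERN1 and CREB3L2 lay low and ATF6 and XBP1 did not. ERN1 (chromosome 17, 64039142 to 64130144) encodes IRE1, the kinase and endoribonuclease that splices XBP1 mRNA. Its only transcript was at −0.88 in the authors' deposited table, or 54.4% of control, at percentile 5.13 of all genes. CREB3L2 (chromosome 7, 137874979 to 138002086) encodes an ER-anchored factor of the same type as ATF6, cleaved in the Golgi, that in mouse cartilage drives secretory pathway genes. It was at −1.08 in the authors' deposited table, or 47.2% of control, at percentile 3.47. That made it the lowest of the members, though the table holds 1 of the 3 transcripts that RefSeq lists for it. ATF6, the membrane-bound sensor whose cleaved part binds ERSE, was at −0.00 in the authors' deposited table, or 99.7% of control.

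XBP1 encodes the factor made active when IRE1 removes a short intron from its mRNA in the cytoplasm. That stretch of 26 bases is in one of the reference transcripts linked to its table entries and not in the other, and it is shown in capitals with 2 bases on each side. The linked transcripts are 1850 bases long (unspliced) and 1794 (spliced), so they differ elsewhere too.
XBP1 intron (chromosome 22, from the unspliced transcript): agCACTCAGACTACGTGCACCTCTGCAGca

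Because the ends of the stretch repeat the bases beside it, 7 placements of the 26 bases give the same spliced transcript. The one drawn was picked because it starts with CACT, and its ends are not placed at the cleavage sites of IRE1. NM_005080, the unspliced form, lay at 0.27 by the authors' deposited table, or 121% of control. NM_001079539, the spliced form, lay at −0.09 by the authors' deposited table, or 94.2% of control. The spliced form thus lay 0.36 lower than the unspliced one on the log2 scale, a difference of −0.36 with no error. No source used here says how reads were assigned to forms this alike.

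ERAD genes had a median of 0.17 over 10 members, with 3 below 0, beside 48.5% of all genes. That count takes EDEM2 and SEL1L as above 0, which rests on their shorter transcripts at 1.41 and 0.97. Their full-length transcripts lay at −0.35 and −0.07 in the authors' deposited table. SYVN1 (chromosome 11, 65127279 to 65134519) encodes HRD1, the membrane ubiquitin ligase at the centre of the pathway. Its transcript NM_032431 was at 3.06 in the authors' deposited table, or 835% of control, at percentile 99.5 of all genes. The table holds 1 of the 2 transcripts that RefSeq lists for SYVN1. Its neighbour MRPL49, which overlaps it over 93 bases, was at 0.78. The part of the other listed transcript and of the overlap in the SYVN1 value was not tested. SEL1L, the partner that joins SYVN1 to its substrates, had a full-length transcript, NM_005065, at −0.07 in the authors' deposited table. A short one, NM_001244984, was at 0.97 there, with a linked coding part of 906 bases against 2385 for the full-length form. The full-length partner of SYVN1 thus lay at the control level.

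The EDEM proteins trim mannose from glycoproteins that have failed to fold. EDEM1 (chromosome 3, 5187707 to 5219958), a classical XBP1 target, was at −0.52 in the authors' deposited table, or 69.8% of control. EDEM3 was at 0.26 there, or 120% of control. EDEM2 had a full-length transcript, NM_018217, at −0.35 and a shorter one, NM_001145025, at 1.41 by the authors' deposited table, which leaves the gene median at 0.53. So by its full-length transcript EDEM2 lay below 0 like EDEM1, and the sign of its gene value is that of the shorter form. The lectin OS9, which recognises the trimmed glycoproteins, had transcripts between −0.03 and 0.32 by the authors' deposited table and a median of 0.18.

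The remaining ERAD genes lay at or near the control level. HERPUD1, a stress-induced membrane scaffold of the SYVN1 complex, was at −0.09 in the authors' deposited table. DERL1 and DERL2, derlin proteins of the channel through which substrates leave, were at 0.15 and −0.07 there. VCP, the ATPase that pulls substrates into the cytosol, was at 0.01 in the authors' deposited table, or 101% of control. DERL2 shares 444 bases with its neighbour MIS12, which was at 0.75. Of the translocon, through which new proteins enter, the channel subunit SEC61A1 was at −0.15 and the small subunit SEC61B at 0.08 in the authors' deposited table.

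**Figure D3:**
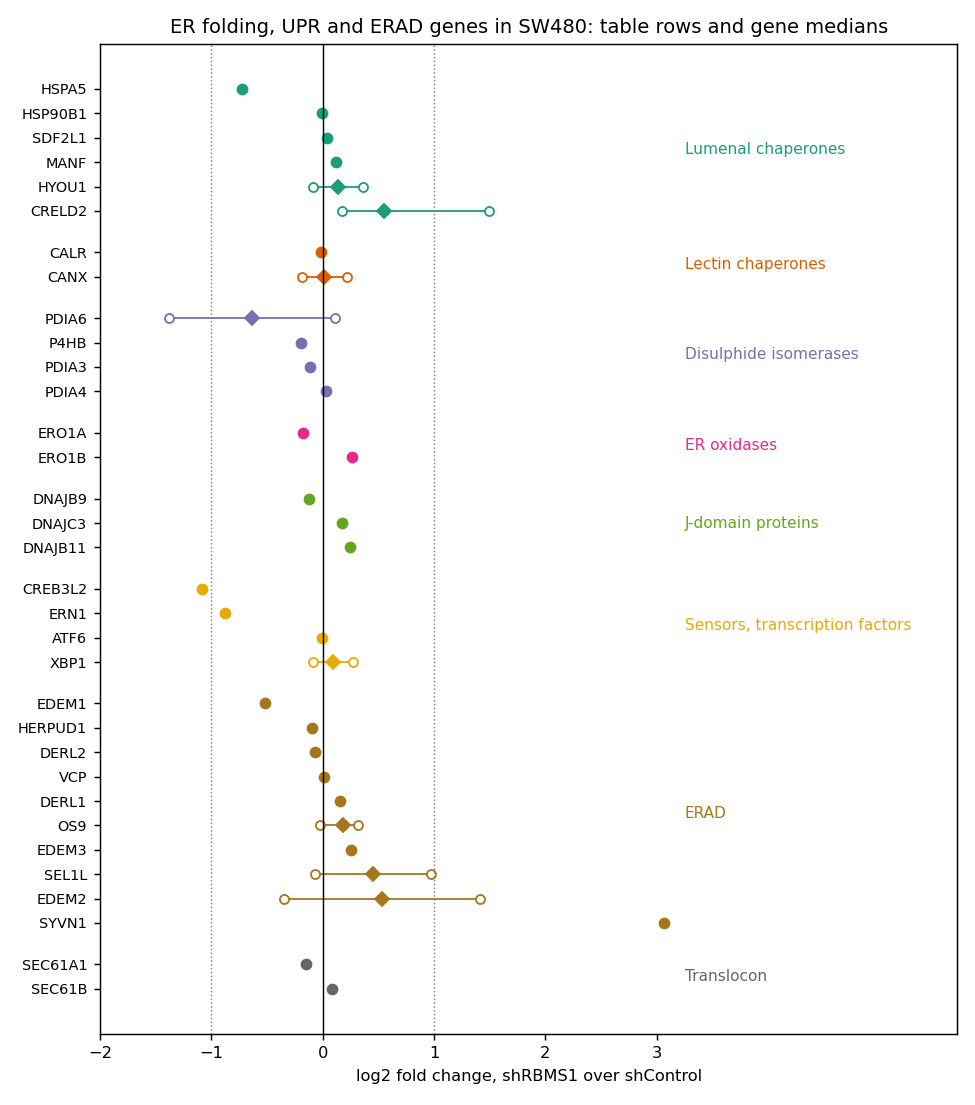
Log2 fold change, shRBMS1 over shControl, for each of the 33 members, grouped by role. Filled circles are genes with 1 measured transcript. For genes with more, open circles are transcripts, joined by a line, and the diamond is their median. SYVN1 stands alone at 3.06, CREB3L2 is lowest at −1.08, and the lines of PDIA6 and EDEM2 reach across 0. Dotted lines mark −1 and 1.

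How far a gene value can be trusted differs among the members by how many transcripts they have. Of the 33, 25 had 1 measured transcript and 8 had more. Among the 8, 4 (PDIA6, CRELD2, SEL1L and EDEM2) had transcripts at least 1 apart, beside 49.3% of all 4597 genes with several. Transcripts on both sides of 0 were found in 7 of the 8, beside 66.5% of those genes, and CRELD2 was the exception. By transcript, 3 of 43 were at or above 1, beside 8.26% of all transcripts, and 2 of 43 were at or below −1, beside 7.86%.

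For 13 members RefSeq lists a single transcript and the table holds it, so no other listed form could take reads from it. Copies elsewhere in the genome are not covered by this. HSPA5 has the copy HSPA5P1, which was not measured, and PDIA3 has PDIA3P1, measured, and PDIA3P2, not measured. Their part in the values was not tested. The group of 13 was formed after the values were seen. It ran from −0.88 for ERN1 to 0.27 for ERO1B with a median of −0.01. Below 0 were 8 of the 13, beside 2052 of the 4132 measured genes with 1 listed transcript. ERN1, HSPA5 and EDEM1 were at or below −0.5, which is 3 of 13 members beside 11.3% of the 4132 genes of that kind. None of the 13 was at or above 0.5, beside 6.44% of such genes. The other 2 members at or below −0.5, CREB3L2 and PDIA6, have 3 and 5 listed transcripts, and the members at or above 0.5, SYVN1, EDEM2 and CRELD2, have 2, 3 and 5.

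The other genes of the pathway were described from 4 lists, in which 135 genes were measured. Their median was 0.10, with 46 of 135 below 0, beside 48.5% of all genes. At or above 1 were 3 of the 135 and at or below −1 were 2, beside 3.95% and 3.96% of all genes. The sensor and PERK list held 18 measured genes with a median of 0.15 and 4 below 0. CREB3L4, a relative of CREB3L2, was highest at 0.83 on transcripts that the authors' deposited table puts between −1.39 and 4.12, and WFS1, a membrane regulator of the response, was lowest at −0.39. DDIT3, the stress-induced factor CHOP, was at 0.44, where HSPA5 lay at −0.73. The transcripts of DDIT3 ran from 0.18 to 1.28 by the authors' deposited table. Nearer 0 in the same list were EIF2AK3, ATF4, TRIB3 and PPP1R15A, between 0.14 and 0.18 as genes. The authors' deposited table puts the transcripts of TRIB3 at −0.38 and 0.71, and those of ATF4 at −0.02 and 0.32.

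Other folding and redox enzymes had a median of 0.11 over 36 genes, with 10 below 0, beside 48.5% of all genes. SERPINH1, the collagen chaperone HSP47, was highest at 1.88, but the authors' deposited table puts its transcripts at 0.13 and 3.63. MOGS, the glucosidase that starts trimming of sugar chains, was lowest at −1.27, with transcripts at −2.50 and −0.04 there. As for PDIA6, 1 transcript of each of these lay near 0. Other ERAD factors had a median of 0.02 over 39 genes, with 19 below 0, beside the same 48.5%. MAN1B1, a mannosidase of the ERAD route, was at 1.01 with its coding transcript at −0.03 by the authors' deposited table, and ERLEC1, a lectin like OS9, was lowest at −0.77, with transcripts at −1.50 and −0.05 by the same table.

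Translocation, signal peptidase and glycosylation factors had a median of 0.12 over 42 genes, with 13 below 0, beside 48.5% of all genes. DDOST, a subunit of the oligosaccharyltransferase, was lowest, and the authors' deposited table puts its only measured transcript at −2.05. EMC10, a subunit of the membrane insertion complex, was highest at 1.57, and the authors' deposited table puts its transcripts at −0.08 and 3.21.

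**Figure D4:**
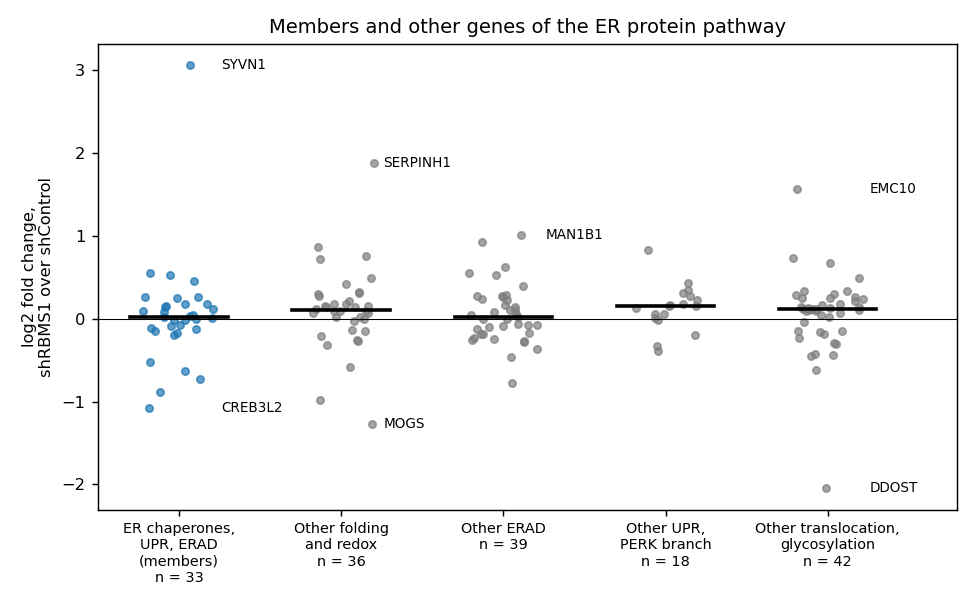
Log2 fold change, shRBMS1 over shControl, of the 33 members and of the measured genes of 4 other pathway lists, 1 point per gene (sideways spread has no meaning) with a black line at the median. Medians lie between 0.02 and 0.15, and the 7 genes at or beyond 1 are named.

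RBMS1 is known to bind A+U-rich RNA such as AUAUA in 3′ untranslated regions, so these were read for ATATA in the linked reference form of each member that has the longest such region (GENCODE 29). Of the 33 members 20 held at least 1 such site (60.6%), against 6611 of 11243 measured genes (58.8%). Members with a site had a median of 0.01 and ranged from −1.08 to 3.06, and 9 of the 20 lay below 0. Over all measured genes with a site the median was 0.02, and 3193 of 6611 lay below 0. The 13 members without a site had a median of 0.03 and ranged from −0.73 to 0.55, with 6 below 0. Over all measured genes without a site the median was −0.004, and 2335 of 4632 lay below 0. The range of the members without a site lay inside that of the members with one. Members with sites had longer regions, with a median of 2622 bases against 576.

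Single low genes fell on either side of this division. CREB3L2 held 4 sites in 5497 bases, EDEM1 8 in 4039 and ERN1 1 in 4846, while HSPA5 held 0 in 1739 and PDIA6 0 in 867. SYVN1, the highest member, held 1 in 1103. SEL1L had the most, 17, and its full-length transcript lay at −0.07. The first site of the 3 low members that have one is shown with 10 bases on each side, the site in capitals.
CREB3L2 (chromosome 7): ttcctctttcATATAaataagaagt
ERN1 (chromosome 17): gctaggcaggATATAgggtgccgga
EDEM1 (chromosome 3): cctgttaaggATATAatttgaagtg

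The letters show that the element occurs in these members, and they say nothing of binding.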

How the data were processed

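Total RNA of 3 SW480 libraries (1 shRBMS1, 2 shControl, 48 hours after transduction) was depleted of ribosomal RNA and sequenced, per the labels' protocols. The authors deposited 1 log2 fold change per RefSeq transcript, for 20104 transcripts. Per the submitters' processing notes the genome build was hg38 and the tools included STAR 2.5, Cuffdiff and Cufflinks, without their roles or settings. Depth is unknown, and no error, interval or p-value was computed.

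The log base and direction are not named per the file headers. Base 2 was taken from spacing: 20 transcripts lay 1 away, within 1.5e-05, from a value occurring at least 3 times, against 4 at ln 2 and 5 at log10 of 2. Direction was set by RBMS1.

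RefSeq's GRCh38.p14 gene table, the assembly of hg38, matched 98.6% of transcripts, and 286 were left out. Gene values are medians of transcripts. Thresholds were 1 and 0.5. Transcript structures came from GENCODE 29. Members, lists and thresholds were chosen with earlier results of these data known. The rule named every member, RBMS1, each other list's highest and lowest gene and its genes at or beyond 1. ERSE carriers outside the members and some marker, neighbour and further list genes were named after their values were seen. Scripts were tested on simulated data. Python 3.11.15, numpy 2.4.6, pandas 2.3.3 and matplotlib 3.10.9 were used.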

Additional observations from a re-analysis of the deposited data

How the results depend on the processing

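The members' median stayed within 0.1 of 0.02 under every alternative tried: it was 0.02 with the mean of transcripts, −0.01 with the longest, −0.03 with the one closest to 0, and −0.01 with genes of 1 measured transcript alone. The count below 0, 15 of 33 beside 48.5% of all genes, was 18 with the longest transcript (49.5% of all genes) and 20 with the one closest to 0 (49.3%), so whether it lies under or over the share of all genes depends on the setting. At or beyond 1 there were 1 higher and 1 lower member. With the longest transcript 2 members were lower, PDIA6 joining at −1.38. A threshold of 0.5 gave 3 higher and 5 lower members and 10 transcripts in place of 5, and a threshold of 2 gave 0 lower members and 1 transcript. Genes with 1 measured transcript held 2 transcripts at or beyond 1. Among the 13 members with 1 listed transcript, a setting chosen after seeing the data, 0 were higher, 0 were lower and 8 lay below 0, from fewer genes. Values moved by at least 0.5 for 3 members, EDEM2, PDIA6 and SEL1L, and the sign changed in at least 1 setting for 8, of which 7 have several transcripts. With the transcript closest to 0, PDIA6 stood at 0.11 and EDEM2 at −0.35. No paired analysis was possible because the table holds 1 value per transcript and none per library, so no replicate could be left out either. The mean, longest and closest settings were not run for counts of transcripts.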
